A study of Mus musculus with 12 samples.

Results

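In mouse small-intestinal organoids lacking Eif4g2, 35 transcript rows had at most about 50% of their wild-type level in RNA-seq while the ribosome footprints on them kept their level. They were picked by measured values. A row needed a coding length of at least 91 and below 1000 codons (an unlabelled column of the deposited tables, read as coding length), at least 40 pooled wild-type RNA-seq counts and at least 200 pooled wild-type footprint counts. Its log2 ratio of knockout to wild type had to be at or below -1 in RNA-seq and between -0.3 and 0.3 in footprints. Of 53945 merged rows with a count, 41757 lay in the length window and 1929 of these also met both count minimums, so the 35 members were 1.81% of the rows that could have been picked. RNA-seq was at or below the limit in 104 of the 1929 rows. Footprints were in the window in 35 of these 104, below it in 67 and above it in 2.

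A transcript's level and its use by ribosomes are separate quantities. Ribosome profiling sequences the mRNA pieces that ribosomes shield from RNase, so its count follows the number of ribosomes on a coding region, whereas RNA-seq follows the number of mRNA molecules. When mRNA falls and footprints do not, the footprint to RNA ratio, also called ribosome density, is higher. Eif4g2 encodes a relative of the scaffold protein eIF4G that lacks the part that binds the cap-binding protein eIF4E, and it takes part in the initiation of translation on a subset of mRNAs.

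The series holds 12 libraries, 6 of RNA-seq and 6 of ribosome profiling, with 2 per genotype and assay. The genotypes were Eif4g2+/+ (WT), Eif4g2+/- (Het) and Eif4g2-/- (KO). Organoids of every genotype grew for 3 days in a basal medium that contained R-spondin-1, Noggin and epithelial growth factor, and all received 0.5 µM 4-OHT (4-hydroxytamoxifen, commonly used to switch on tamoxifen-inducible recombinases) for 24 hours. The labels name no Cre driver and no floxed allele, and they do not say whether 2 libraries of a genotype came from separate animals, so every p-value measures only the spread between these libraries, which may be technical. No table used here pairs the transcript IDs with gene symbols. The level of Eif4g2, the intestinal cell type markers, gene roles and sequences of the members were therefore not analysed here, and members are called by their coding length.

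RNA-seq was far shallower than ribosome profiling, and its depth followed genotype. The WT libraries RNA_6026_WT and RNA_6028_WT totalled 447153 and 387649 counts over all rows. The Het libraries RNA_6136_hetero and RNA_6139_hetero totalled 776173 and 554845 counts, and the KO libraries RNA_6070_homo and RNA_6072_homo 895431 and 1077663. Values of a genotype follow this order throughout, and the footprint libraries carry the same organoid numbers. Footprint totals ran from 5551591 counts, in Ribo_6028_WT, to 25899680 counts. The pooled KO RNA-seq total was 2.36 times the WT total, and the limit on the RNA ratio therefore held members to nearly flat raw counts: their pooled KO count was 0.714 to 1.18 times their WT count, against a median of 2.36 over the 1929 rows. In Het, whose values the choice did not use, the raw RNA-seq count of members was 0.571 to 1.34 times that of WT (median 1.03), against a median of 1.59 over the 1929 rows and a ratio of totals of 1.59. Within each genotype the members' counts followed depth as a sum, but not in every single member. Summed over the 35 members, they were 8966 and 7296 in the WT libraries, 9917 and 7652 in those of Het, and 8062 and 10113 in those of KO, each time higher in the deeper library. The rows of 725 and 191 codons held most of these counts. Without them the sums kept that order, at 1700 against 1445 for WT, 1877 against 1349 for Het and 1535 against 1755 for KO. Between genotypes, RNA-seq depth has the same order as the number of Eif4g2 alleles lost. Any part of that order in the RNA ratios was not tested.

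**Figure D1:**
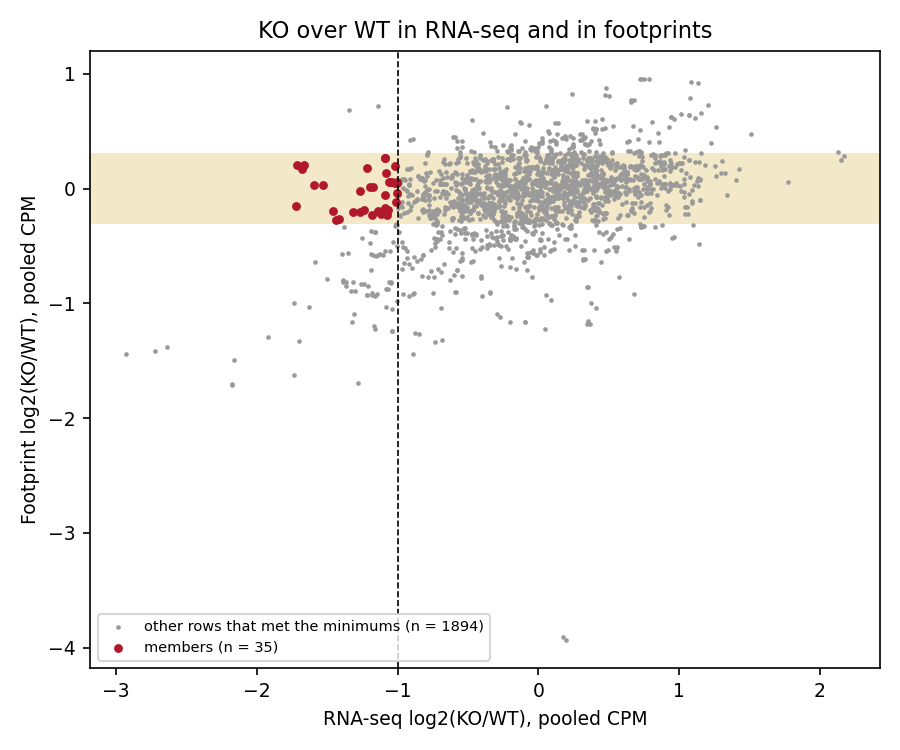
Each point is 1 of the 1929 merged rows that met the length and count minimums; the x axis is the RNA-seq and the y axis the footprint log2 ratio of pooled KO to pooled WT counts per 1000000 (CPM). The dashed line marks the RNA-seq limit of -1, the shaded band the footprint window from -0.3 to 0.3, and red points the 35 members, which reach -1.72 on the x axis.

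Values of the KO/WT ratios describe how members were picked and carry no test. In RNA-seq the log2 KO/WT ratio of members had a median of -1.14 and ran from -1.72 to -1.001, against a median of -0.01 over the 1929 rows. In footprints the members' median was 0.01, with a range from -0.28 to 0.27, against -0.01. The member nearest to the RNA limit had 299 codons and a ratio of -1.001 from 77 WT and 91 KO counts. The row just past that limit had 127 codons and a ratio of -0.99995, from 137 WT and 162 KO counts. At the upper footprint limit the last member was at 0.27, and the next row, of 632 codons, was at 0.69. At the lower limit the last member was at -0.28, and the next row, of 729 codons, at -0.31. With the limits mirrored, RNA-seq at or above 1 and footprints in the same window, 45 of the 1929 rows qualified.

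Members were not 35 separate genes. How reads shared by isoforms were counted is not given, but some rows were equal in all 12 libraries. Rows whose counts ran in parallel over the 12 libraries were linked into transcript groups. The 35 members formed 28 such groups, and 7 groups held more than 1 member. In 23 groups, every row that met the minimums was a member. The other 5 groups held 26 further rows that met the minimums and missed a limit. Most of these belonged to the group of a 127-codon member, whose further rows had coding lengths of only 94, 117, 121 or 127 codons and RNA-seq log2 KO/WT ratios from -0.99995 to -0.09. Reads of near-identical copies could be split or counted again in such a set, so its values are uncertain. Groups are not genes either: the members of 376 and 367 codons stood in separate groups although both had 21 and 28 RNA-seq counts in the WT libraries.

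The most deeply counted member was ENSMUST00000136312.2, with 725 codons. In RNA-seq its level was 12461 and 11557 CPM in WT, 7916 and 8716 CPM in Het, and 5572 and 5920 CPM in KO. The 3 genotypes did not overlap, and Het lay between WT and KO. Footprints were 4325 and 5029 CPM in WT, 4685 and 4304 CPM in Het, and 4357 and 5186 CPM in KO, so the footprint levels of the genotypes overlapped. Raw RNA-seq counts behind these levels were 5572 and 4480 for WT, 6144 and 4836 for Het, and 4989 and 6380 for KO. The log2 KO/WT ratio was -1.06, with a 95% interval from -1.10 to -1.02 that covers counting error only (exact Clopper-Pearson limits of the share of KO among KO and WT counts, as for all intervals here). A member of 191 codons belonged to the same transcript group and is not separate evidence.

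ENSMUST00000045301.9, with 212 codons, was the next deepest. In RNA-seq it was at 917 and 740 CPM in WT, 568 and 492 CPM in Het, and 429 and 404 CPM in KO, again without overlap. Footprints were at 1041 and 1249 CPM in WT, 1115 and 1068 CPM in Het, and 1018 and 1008 CPM in KO. Both KO footprint libraries thus lay below the other 4, by less than the window of the choice. Its log2 KO/WT ratios were -1.01 (95% interval -1.16 to -0.86) in RNA-seq and -0.11 (-0.13 to -0.09) in footprints.

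Among the shorter members, the 172-codon member had RNA-seq levels of 255 and 209 CPM in WT, 151 and 144 CPM in Het, and 118 and 115 CPM in KO. Its footprints were at 666 and 868 CPM in WT, 710 and 723 CPM in Het, and 739 and 752 CPM in KO, so WT spanned the other genotypes. The 233-codon member was at 208 and 204 CPM of RNA in WT, 128 and 137 CPM in Het, and 68.1 and 80.7 CPM in KO. Footprints on it were few, 198 and 58 in the WT libraries and 278 and 190 in those of KO, and stood at 12.7 and 10.4 CPM in WT, 14.2 and 13.0 CPM in Het, and 10.7 and 10.4 CPM in KO.

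A pair of 127-codon members from separate groups had closely similar values, and their counts ran in parallel over the libraries. Whether they share reads was not tested, so they are not taken as separate evidence. The first was at 195 and 163 CPM of RNA in WT, 113 and 106 CPM in Het, and 99.4 and 74.2 CPM in KO. The other was at 186 and 142 CPM in WT, 102 and 93.7 CPM in Het, and 83.8 and 72.4 CPM in KO. In both, all 3 genotypes kept apart in RNA-seq. Their footprints were higher in Ribo_6028_WT (1483 and 1363 CPM) than in Ribo_6026_WT (1066 and 983 CPM), and both KO libraries lay at 1002 and 1081 CPM on the first and 937 and 1003 CPM on the other. The spread between the WT footprint libraries was thus wider here than the distance from Ribo_6026_WT to KO.

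Members of lower depth showed the same RNA-seq order with wider spread. The 947-codon member was at 109.6 and 139 CPM of RNA in WT, 86.3 and 73.9 CPM in Het, and 62.5 and 46.4 CPM in KO. The 267-codon member was at 109.6 and 134 CPM in WT, 74.7 and 82.9 CPM in Het, and 35.7 and 43.6 CPM in KO. The 821-codon member was at 73.8 and 134 CPM in WT, 65.7 and 72.1 CPM in Het, and 35.7 and 26.9 CPM in KO. In each of these 3 members both Het libraries lay below both WT libraries and above both KO libraries. Footprints in the 6 libraries ran from 23.4 to 26.7 CPM on the 947-codon member, from 8.23 to 10.9 CPM on the 267-codon member and from 12.3 to 15.0 CPM on the 821-codon member.

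The last 3 of the 12 deepest groups were close to the RNA limit. RNA-seq of the 898-codon member was 101 and 103 CPM in WT, 77.3 and 86.5 CPM in Het, and 45.8 and 54.7 CPM in KO. The 538-codon member was at 87.2 and 100.6 CPM in WT, 59.3 and 77.5 CPM in Het, and 44.7 and 47.3 CPM in KO. The 299-codon member was at 87.2 and 98.0 CPM in WT, 61.8 and 57.7 CPM in Het, and 45.8 and 46.4 CPM in KO. None of the 3 had overlapping genotypes in RNA-seq. Each of these values rests on 32 to 60 counts per library, and the interval of the log2 KO/WT ratio of the 299-codon member ran from -1.45 to -0.54.

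The lowest RNA-seq log2 KO/WT ratio among members, -1.72, was that of a 212-codon member outside the 12 deepest, and the 821-codon member was also at -1.72 after rounding. It had 33 and 37 RNA-seq counts in WT and 25 and 25 in KO, or 73.8 and 95.4 CPM against 27.9 and 23.2 CPM, with Het at 54.1 and 59.5 CPM. Footprints were at 56.2 and 59.3 CPM in WT and 49.7 and 53.7 CPM in KO. The interval of its RNA ratio ran from -2.28 to -1.18. Members of this depth are therefore not ordered by the size of their ratio.

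**Figure D2:**
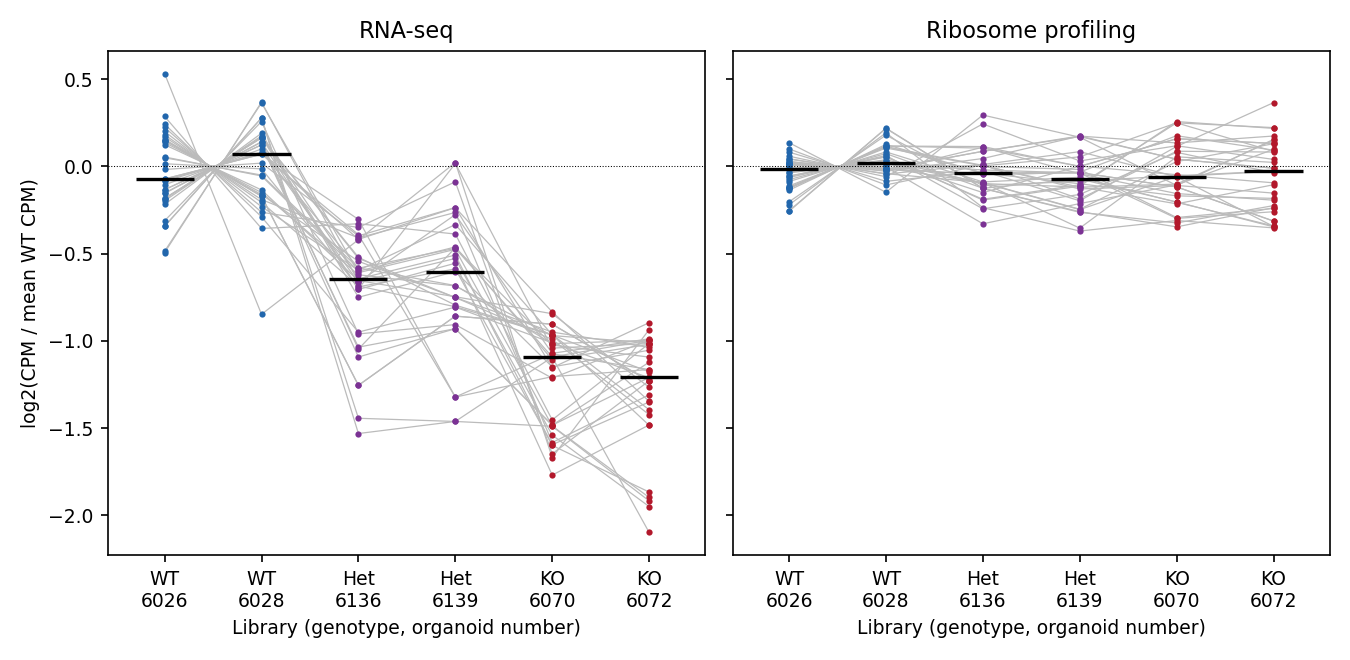
Each point is a member in 1 library, with the level given as log2 of CPM over the mean CPM of the WT libraries; grey lines join the values of a member, and black bars mark the median of the 35 members. In RNA-seq both KO libraries lie below both WT libraries for all 35 members (34.2% of the 1929 rows), as the choice favoured, and Het lies between for most; in ribosome profiling the libraries of all genotypes scatter around 0.

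Leaving a library out gives counts that did not enter the choice, although the libraries they are compared with did. Rows were picked again without 1 library, the count minimums were scaled to the libraries left, and the left-out library was then compared with the opposite genotype. Without RNA_6070_homo, 41 rows were picked with a median log2 KO/WT of -1.15. In the left-out library their median was -0.98 and all 41 were below 0, against 51.4% of the 1929 rows. Of the 41, 46.3% were at or below -1, against 6.53% of the 1929 rows. Without RNA_6072_homo, 52 rows were picked at a median of -1.11 and stood at -0.90 in that library. All 52 were below 0 (51.3% of all that met the minimums), and 36.5% were at or below -1 (5.65%).

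The WT libraries behaved alike with more loss. Rows picked without RNA_6026_WT numbered 48, and their median moved from -1.21 to -0.88 when KO was set against the left-out library, with 37.5% at or below -1 against 4.75%. Without RNA_6028_WT, 56 rows moved from -1.15 to -0.84, with 32.1% against 5.04%. Of the 56, 49 were below 0, against 46.8% of all that met the minimums. The opposite genotype was used in the choice each time, which favoured the direction of these values. They describe the rows picked and are no independent support. In all 4 settings the left-out library gave a smaller median difference than the libraries used. For footprints, the left-out library fell in the window for 75% to 93.5% of the rows picked, against 68.1% to 75.4% of all rows that met the minimums.

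In heterozygous organoids, RNA-seq of members lay between WT and KO. The log2 Het/WT ratio had a median of -0.63 and ran from -1.47 to -0.26, against a median of -0.01 over the 1929 rows. It was below 0 in 35 of 35 members, against 51.4% of the 1929 rows. Each Het library gave a like value: the median was -0.63 in RNA_6136_hetero, below 0 in 35 members, and -0.58 in RNA_6139_hetero, below 0 in 34. Both Het libraries lay below both WT libraries in 30 members (25.8% of the 1929 rows), and both KO libraries below both Het libraries in 29 (32.6%). The full order of WT above Het above KO without overlap held in 24 members, against 10.3%. Het/WT ratios share their WT libraries with the choice, which favoured rows high in WT, and KO/Het ratios share the KO libraries, so these counts describe the members and are no independent support.

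Of the 35 members, edgeR's quasi-likelihood test over all 12464 RNA-seq rows tested called 14 lower in Het than in WT at an adjusted p under 0.05, and none higher. The background was 1.66% of all rows tested and 4.15% of the rows that met the minimums. The choice favoured rows high in the same WT libraries. The count of 14, its direction and the p-values given here thus describe the members and are no independent support. The 14 calls came from 11 transcript groups, and 27 members passed an unadjusted p under 0.05, all lower, as did 8.67% of all rows tested and 16.3% of the rows that met the minimums. All 6 of the deepest groups were called, among them both of the 127-codon pair, which are not taken as separate evidence. ENSMUST00000136312.2 was lower by a log2 change of -0.63 (SE 0.12, edgeR adjusted p 0.000325), and ENSMUST00000045301.9 by -0.74 (SE 0.14, edgeR adjusted p 0.000325). The 172-codon member changed by -0.76, the 233-codon member by -0.75, and the 127-codon pair by -0.80 and -0.85, with edgeR adjusted p from 0.00842 to 0.0141. Further rows in the group of the first of this pair had pooled log2 Het/WT ratios from -0.65 to 0.25. Of the 12 deepest, the members of 947, 267, 821, 898, 538 and 299 codons had edgeR adjusted p from 0.0712 to 0.374 and were not called.

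The count of 14 depended on single libraries and on the tool. It was 2 without RNA_6026_WT, 6 without RNA_6028_WT, 3 without RNA_6136_hetero and 9 without RNA_6139_hetero. DESeq2 called 4, but gave an adjusted p for only 11 of the 35 members (lower calls were 2.91% of the 1202 rows that met the minimums and had one), and without a count filter edgeR called 5. Without RNA_6026_WT none of the 6 deepest groups was called. The change of ENSMUST00000136312.2 was then -0.57 with an edgeR adjusted p of 0.108, where the other settings, DESeq2 among them, kept the call with adjusted p from 1.2e-05 to 0.0157. That of ENSMUST00000045301.9 was -0.57 with 0.114, where the other settings, edgeR or DESeq2, gave adjusted p from 0.000191 to 0.00745.

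Some members of low depth had Het levels as low as KO levels. The 376-codon member was at 47.0 and 72.2 CPM of RNA in WT, 21.9 and 21.6 CPM in Het, and 21.2 and 15.8 CPM in KO. Its neighbour of 367 codons, with the same WT counts, was at 20.6 and 21.6 CPM in Het and 27.9 and 13.9 CPM in KO. Their Het vs WT changes were -1.53 (SE 0.33) and -1.58 (SE 0.35), both with an edgeR adjusted p of 0.00498, while KO vs Het gave 0.794 and 0.990. A log2 Het/WT ratio at or below -1 occurred in 5 members from 4 groups, against 0.622% of the 1929 rows. Whether the members of 376 and 367 codons share reads was not tested. They are not taken as separate evidence, here or among the Het vs WT calls.

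Others were near WT in Het. The 740-codon member was at 93.9 and 67.1 CPM of RNA in WT, 63.1 and 75.7 CPM in Het, and 25.7 and 34.3 CPM in KO. Het overlapped WT there, and KO stood apart from both. The 208-codon member had the WT libraries that differed most as a ratio, at 87.2 and 33.5 CPM from 39 and 13 counts, with Het at 45.1 and 61.3 and KO at 19.0 and 31.5. Its level in RNA_6028_WT was close to the higher KO value.

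Between KO and Het, edgeR called 11 of the 35 members lower in KO in RNA-seq and none higher, against 3.28% of all rows tested and 6.79% of the rows that met the minimums. They came from 8 groups. Among the 12 deepest these were ENSMUST00000136312.2 (-0.50, SE 0.12, edgeR adjusted p 0.00275) and the members of 233, 267 and 821 codons (-0.78, -0.93 and -1.10, edgeR adjusted p 0.00442 to 0.00731). ENSMUST00000045301.9 was not called (-0.32, edgeR adjusted p 0.145). Without RNA_6139_hetero 1 member was called, and without RNA_6070_homo there were 6. DESeq2 called 7 of the 17 members to which it gave an adjusted p, against 3.16% of such rows that met the minimums. The choice favoured low RNA in the same KO libraries. These counts, their direction and the p-values thus describe the members and are no independent support.

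**Figure D3:**
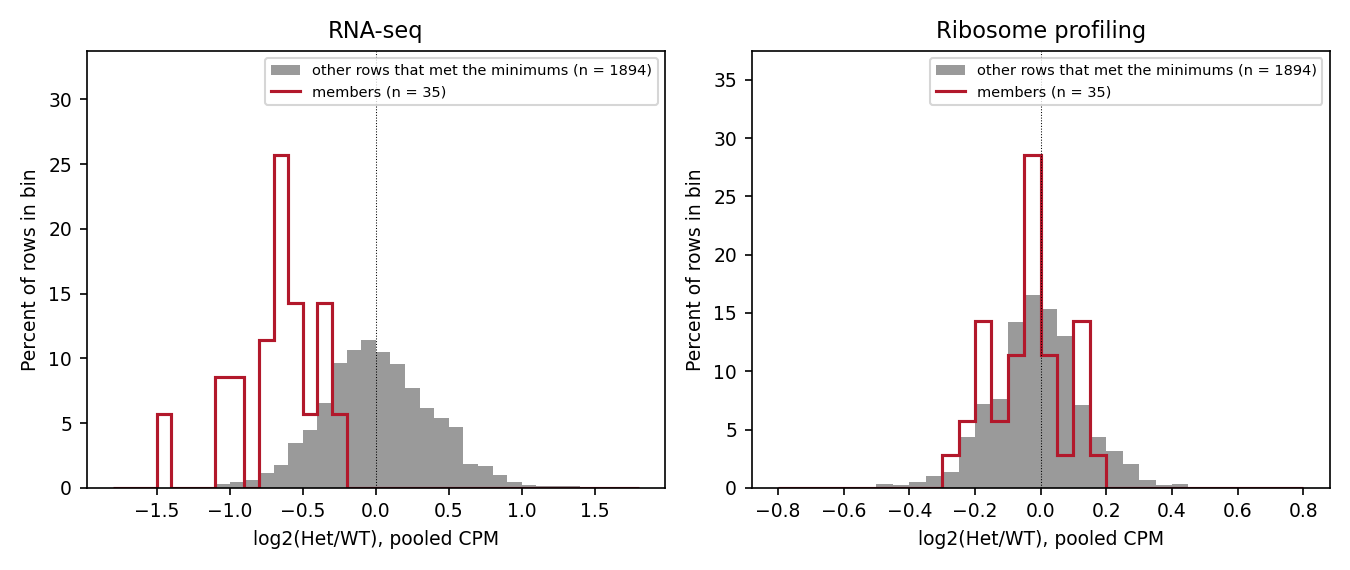
Histograms of the log2 ratio of pooled Het to pooled WT CPM for RNA-seq (left) and footprints (right), as the percent of rows per bin. Red outlines are the 35 members and grey bars the other 1894 rows that met the minimums; in RNA-seq members run from -1.47 to -0.26, while in footprints they run from -0.26 to 0.15 inside the spread of the other rows.

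Footprints of members were also level in Het, as were those of most of the 1929 rows. Het/WT footprint ratios share their WT libraries with the choice. The log2 Het/WT footprint ratio had a median of -0.03 and ran from -0.26 to 0.15, and all 35 members lay within -0.3 to 0.3, as did 96.5% of the 1929 rows. Both Het footprint libraries lay below both WT libraries in 12 members (26.6% of the 1929 rows) and above them in 4 (20.7%). No member was called by edgeR in footprints in Het vs WT and none passed an unadjusted p under 0.05. At the adjusted threshold, 0.989% of all rows tested and 1.14% of the rows that met the minimums were called. With a background this low, the lack of calls does not set the members apart. DESeq2 gave an adjusted p for 11 of the 35 members and called 0 of these, against 2.25% of such rows that met the minimums. Without Ribo_6026_WT, edgeR called 2 members. For ENSMUST00000045301.9 the interval of the Het/WT footprint ratio ran from -0.04 to 0.01, against -0.79 to -0.49 in RNA-seq. These intervals cover counting error only. With the spread between libraries, edgeR's change for this member was -0.07 (SE 0.08) in footprints and -0.74 (SE 0.14) in RNA-seq.

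In KO vs Het, whose KO footprints were used in the choice, edgeR called 6 members in footprints, 3 lower and 3 higher in KO, from 4 groups. The background was 23.9% of all rows tested and 33.7% of the rows that met the minimums. The 233-codon member was lower by -0.36, and the 740- and 700-codon members of 1 group by -0.26 and -0.25. The 366- and 347-codon members of another group were higher by 0.38 and the 861-codon member by 0.35 (edgeR adjusted p of the 6 from 0.000536 to 0.0408). DESeq2 called 2 of the 35, against 16.3% of the rows that met the minimums. The edgeR count was 3 without Ribo_6072_homo, and 2 without Ribo_6136_hetero or without Ribo_6139_hetero.

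Ribosome density followed from both readouts. The footprint to RNA ratio, in pooled CPM, of ENSMUST00000136312.2 went from 0.375 (WT) to 0.541 (Het) and 0.816 (KO), and that of ENSMUST00000045301.9 went from 1.31 to 2.03 and 2.44. On the log2 scale the median ratio of the 35 members was -1.42 for WT, -0.87 for Het and -0.36 for KO. Over the 1929 rows it was -1.11, -1.13 and -1.10. Members thus stood below the median of those rows in WT and above it in Het and KO. The rise from WT to KO follows from the choice, which set no limit on the level of the ratio itself. Het libraries did not enter the choice, but the WT libraries they are compared with did.

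Tested as the interaction of genotype and assay, no member was called in Het vs WT density by edgeR (0.0887% of all rows tested and 0.933% of the rows that met the minimums were called), although 24 members passed an unadjusted p under 0.05, all higher in Het. Rows higher in Het at that unadjusted threshold were 3.08% of all tested and 10.5% of those that met the minimums. DESeq2 called 6 members, all higher, against 1.5% of the rows that met the minimums. The WT libraries here are those of the choice, which favoured a low WT density. In KO vs Het, edgeR called 8 members higher in KO and none lower, against 0.212% of all rows tested and 1.24% of the rows that met the minimums. The choice favoured a high density in the same KO libraries, so this count and its direction describe the members and support nothing. The 8 included the members of 267 and 821 codons (1.17 and 1.17 on the log2 scale, edgeR adjusted p 0.00374 and 0.00994) and ENSMUST00000136312.2 (0.54, edgeR adjusted p 0.0471).

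Coding length of members covered most of the window. Their median length was 538 codons, with a range from 127 to 978, against a median of 512 over the 1929 rows. Counted with 1 row per transcript group, the median was 417.5 for the 28 groups of members and 513 for all 1141 groups that met the minimums. The difference was not tested. Lengths of 91 to 199 codons held 14.3% of members and 14.4% of the rows, and lengths of 700 codons or more held 28.6% and 27.4%. Across the 5 length classes, members made up 1.47% to 2.37% of the rows. RNA-seq ratios at or below -1, with any footprint change, were more frequent among the longer rows, at 7.13% from 500 to 699 codons and 6.82% from 700 upwards, against 3.56% to 3.92% in the 3 shorter classes.

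Depth set how well each member is known. Members had a median of 68 pooled WT RNA-seq counts, against 70 over the 1929 rows, and 14 of the 35 had 40 to 59. Their share was 2.02% of the rows with 40 to 59 WT counts and 1.32% of the rows with 200 or more. Footprint depth was lower than in the rows around them, with a median of 625 pooled WT counts against 925. Members numbered 14 among the 544 rows with 200 to 499 WT footprint counts (2.57%). They numbered 11 among the 462 rows from 500 to below 1000 (2.38%) and 4 among the 676 rows with 1000 to 4999 (0.592%). Among the 247 rows with 5000 or more there were 6 (2.43%). The share of members thus did not fall steadily with footprint depth. A single transcript group dominated the members' summed counts: members held 2.01% and 1.88% of RNA-seq counts in WT and 0.900% and 0.938% in KO. Without the group of ENSMUST00000136312.2 they held 0.380% and 0.373% in WT against 0.171% and 0.163% in KO.

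**Figure D4:**
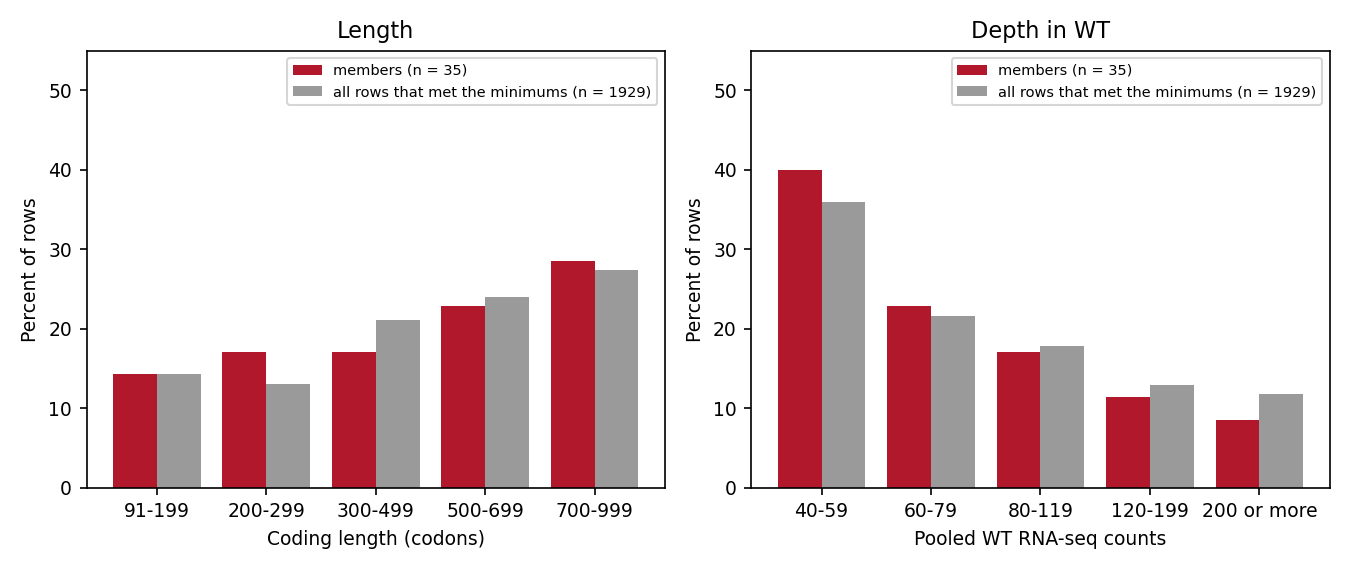
Bars give the percent of the 35 members (red) and of all 1929 rows that met the minimums (grey) in classes of coding length in codons (left) and of pooled WT RNA-seq counts (right). In length, 14.3% of members and 14.4% of the rows have fewer than 200 codons, and 40% of members fall in the class with 40 to 59 counts.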

How the data were processed

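RNA-seq and ribosome profiling counts of 12 libraries were used. The authors deposited raw counts per Ensembl transcript, 278268 rows per library and no header; column 2 is an unlabelled whole number (lowest -9, median 292, highest 35381; no value in 211773 rows) read here as coding length in codons. A length cannot be negative, so that reading is uncertain. Per the submitters' processing notes, CASAVA 1.8, cutadapt 3.7, UMI-tools 1.1.2, STAR 2.7.0a and the build mm39 were involved; the counting tool, the use of strand and of molecular identifiers in counting are not given in the sources used here.

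Rows equal in column 2 and in all 12 counts were merged. CPM divides a count by its library's total over all rows and multiplies by 1000000. In that total a read may count on several isoforms. Pooled ratios had 0.5 added to each pooled count. Transcript groups linked rows within 25 rows of each other. Rows with at least 24 counts were linked at a chi-square under 3.05 or a log2 ratio with an SD under 0.15 over libraries. Rows equal in all 12 counts were linked from a sum of 6 counts upwards. edgeR 4.0.16 (R 4.3.3; TMM, filterByExpr, quasi-likelihood tests, Benjamini-Hochberg over all rows tested, two-sided) fitted each assay with 3 genotypes, and all 12 libraries for density; DESeq2 1.42.0 was an alternative. edgeR's changes are on the TMM scale, which in RNA-seq Het vs WT shifts the median of the 1929 rows by -0.10 from the pooled ratios. The members, lists and tests were chosen with earlier results of these data known. Described members were ranked by pooled WT RNA-seq counts, 1 per transcript group: 2 IDs are printed and 10 more given by length. The members of 191, 740, 700, 208, 376, 367, 366, 347 and 861 codons were chosen after their values were seen.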

Additional observations from a re-analysis of the deposited data

How the results depend on the processing

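The number of members, 35, moved most with the limits: 13 with at least 80 pooled WT RNA-seq counts, and 90 with RNA-seq at or below -0.8, a setting chosen after seeing the data. Leaving out single libraries gave 22 (without Ribo_6026_WT) to 56 (without RNA_6028_WT); TMM scaling gave 45 and CPM over merged rows in the length window 46. The median RNA-seq log2 Het/WT of members was -0.73 with TMM, and -0.72 to -0.58 leaving out single libraries. The median footprint log2 Het/WT ranged from -0.14 to -0.00137 leaving out single libraries. The median length was 417.5 with 1 row per transcript group.

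RNA-seq Het vs WT calls among members were 4 with DESeq2 (of 11 with an adjusted p), 5 without a count filter and 2 to 9 leaving out libraries, against 14. KO vs Het gave 7 with DESeq2 (of 17) and 1 to 11 leaving out libraries, against 11. Footprint calls in KO vs Het were 2 with DESeq2 and 2 to 4 leaving out libraries, against 6; in Het vs WT they were 0 to 2. Density Het vs WT gave 6 calls with DESeq2 and 0 with the organoid number as replicate block, against 0. RNA-seq and footprint libraries with the same number showed little shared deviation (r of 0.070 in WT, 0.126 in Het and 0.041 in KO over 1385 groups), so pairing was not taken as shown. The cause was not tested for any of these. Where an arm was left with 1 library, it was assumed to vary like the others. No change of the 12 deepest members in Het vs WT or KO vs Het reversed; 26 values were no longer called and 127 stayed on their side of the threshold. RNA-seq depth, 40 counts at the lowest, limits single members.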
